A study of Mus musculus with 7 samples.

Results

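Glycolysis runs on enzymes that most often exist as several isoenzymes, each encoded by its own gene. The genes described here are 32 of the 24354 in the table of expression values: the transporters of glucose and lactate, the enzymes between glucose and lactate, and the kinases that set the pace of phosphofructokinase and of pyruvate entry into mitochondria. They were taken by name, although earlier results of these data were known when the genes were chosen. RNA sequencing measured them in 7 mouse libraries, and values are FPKM, the number of sequenced fragments corrected for transcript length and library size, so that levels of different genes can be set side by side.

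The cells came from embryonic day 13.5. Induced neural stem cells (iNSCs) were fibroblasts converted with reprogramming factors on viral vectors, in lentivirus or retrovirus, polycistronic or monocistronic, and then kept in neural stem cell medium. There were 5 iNSC libraries, named DTA, pBKSM, pOKSM, mcBKSM clone 1 and mcBKSM clone 3, and the labels do not spell out these names. The DTA line carried Oct4-CreER with the Rosa26-loxSTOPlox-DTA allele, its strain was recorded as unknown, and no label names its vector. The pBKSM, pOKSM and mcBKSM lines carried Oct4-CreER with the Rosa26-loxSTOPlox-EYFP allele on C57BL/6-Pou5f1 x 129X1/SvJ, as did the mouse embryonic fibroblasts (MEFs). MEFs were made from embryos without head, spinal cord and internal organs. Cortical neural stem cells (cNSCs) came from the cerebral cortex of OG2/ROSA26 embryos, so strain and cell type cannot be told apart between cNSCs and the other libraries. Each mcBKSM library is 1 clone, and RNA of 2 to 3 biological replicates was pooled for every library. The spread over the 5 iNSC libraries is therefore a spread between lines, counting the mcBKSM clones as separate lines. These clones share a label and may not be independent of each other. Each p-value below measures a difference against that spread, not against repeats of 1 line. For DTA, the spread is that between the other iNSC lines. For pBKSM against the mcBKSM clones, the spread is that between the clones.

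Glucose enters through facilitative transporters, is trapped by hexokinase, is committed by phosphofructokinase, and is split by aldolase into trioses that end as pyruvate. Lactate dehydrogenase turns pyruvate into lactate, monocarboxylate transporters carry it across the membrane, and pyruvate dehydrogenase kinases (PDKs) hold pyruvate back from mitochondrial oxidation. In the brain, aldolase C and the GLUT3 transporter are known for their neural expression, gamma enolase is the neuronal enolase, and beta enolase and phosphoglycerate mutase 2 are the muscle forms. Many of these genes are known targets of the hypoxia-inducible factors (HIF) and of Myc.

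The libraries matched their labels by marker genes. Of 8 neural stem cell markers, 8 reached 1 FPKM in each of the 5 iNSC libraries and in cNSCs, against 0 in MEFs. Of 8 fibroblast markers, 1 or 2 reached 1 FPKM in the iNSC libraries, 1 did in cNSCs and 7 did in MEFs. The 8 summed to 3.43 FPKM in DTA, 3.70 in pBKSM, 40.2 in pOKSM, 33.9 and 48.0 in mcBKSM clones 1 and 3, 2.69 in cNSCs and 1420 in MEFs. In pOKSM and the mcBKSM clones, Fbn1 was at 18.7 to 22.4 FPKM, against 37.6 in MEFs. Col3a1 was there at 10.3 to 25.8 FPKM, against 219 in MEFs. The part of these markers in the results was not tested. The depth estimated from the steps between low values was 11.8 M to 17.3 M fragments, at which 3 fragments on a transcript of 2 kb give 0.0962 to 0.1418 FPKM, and this floor covers counting error only. Summed FPKM over all genes was 445433 in DTA, 594605 in pBKSM, 547047 in pOKSM, 557900 and 544949 in mcBKSM clones 1 and 3, 451974 in cNSCs and 537140 in MEFs.

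The iNSC lines differed from MEFs in which aldolase and glucose transporter genes they expressed. Aldoc, which encodes aldolase C, and Slc2a3, which encodes the transporter GLUT3, were higher in iNSCs than in MEFs. Slc2a1 (the widely expressed transporter GLUT1), Tpi1 (triose phosphate isomerase), Eno2 (gamma enolase) and Pfkfb1 (a bifunctional enzyme that makes and removes the phosphofructokinase activator fructose 2,6-bisphosphate) were lower. Those 6 calls are 20% of the 30 members tested, against 16.3% of all 13042 genes tested, so the share is near the background. Of all genes 6.77% were higher and 9.55% lower. Among iNSC lines, pBKSM held more transcript for most enzymes of the pathway than the other 4 lines did, with the test calling Aldoc and Pgk1 (phosphoglycerate kinase) higher and Pfkp (the platelet-type phosphofructokinase) lower than in the mcBKSM clones.

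**Figure D1:**
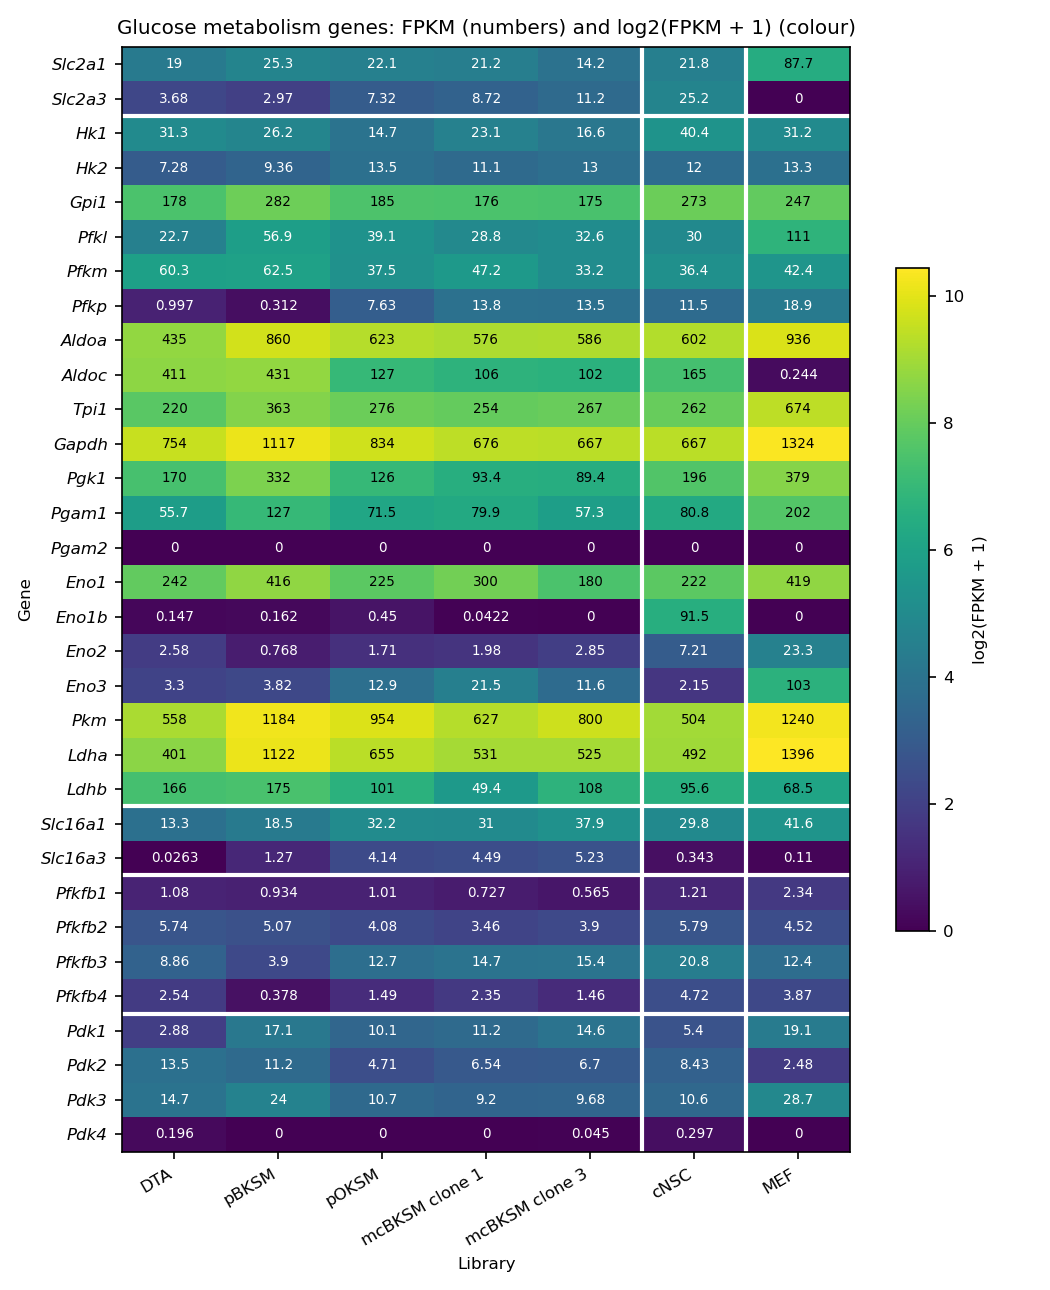
Level of each of the 32 genes (rows, by step of the pathway) in each library (columns), with FPKM printed in the cell and log2(FPKM + 1) as the colour. Aldoc stands at 102 FPKM or more in the 5 iNSC libraries and at 0.244 FPKM in MEFs, and Pgam2 is at 0 in all 7 columns.

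Sequence upstream of 4 of these genes is printed because Aldoc, Pfkp and Pgk1 separated pBKSM from the mcBKSM clones and Slc2a1 separated iNSCs from MEFs. The sequences are RefSeq promoter windows of GRCm38.p6, restricted to bases that lie before any annotated exon. They read 5′ to 3′ on the gene's strand, and capitals mark ACGTG or GCGTG, the core of the HIF binding motif, on either strand. The stretches are chr11:78322823-78322967 on the plus strand for Aldoc, chr13:6648778-6649021 on the minus strand for Pfkp, chrX:106186850-106187099 on the plus strand for Pgk1 and chr4:119108495-119108710 on the plus strand for Slc2a1.
Aldoc: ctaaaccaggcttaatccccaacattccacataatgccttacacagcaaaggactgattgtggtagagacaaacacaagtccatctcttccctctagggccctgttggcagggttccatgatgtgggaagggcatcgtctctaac
Pfkp: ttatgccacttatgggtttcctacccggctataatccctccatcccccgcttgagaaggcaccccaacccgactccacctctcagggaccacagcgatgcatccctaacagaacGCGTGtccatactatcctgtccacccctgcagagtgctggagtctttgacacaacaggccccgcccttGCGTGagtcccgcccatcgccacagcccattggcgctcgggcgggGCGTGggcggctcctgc
Pgk1: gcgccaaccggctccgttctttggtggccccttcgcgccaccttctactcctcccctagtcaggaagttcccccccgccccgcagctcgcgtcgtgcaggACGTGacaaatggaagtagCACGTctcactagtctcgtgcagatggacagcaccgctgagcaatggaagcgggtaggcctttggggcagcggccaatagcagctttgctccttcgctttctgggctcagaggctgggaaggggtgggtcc
Slc2a1: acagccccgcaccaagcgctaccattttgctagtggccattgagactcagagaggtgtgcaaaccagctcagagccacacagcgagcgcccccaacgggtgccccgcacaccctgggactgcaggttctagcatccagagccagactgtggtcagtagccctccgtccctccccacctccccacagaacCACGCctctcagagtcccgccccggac
The Pgk1 stretch holds 2 matches, Pfkp 3, Slc2a1 1 and Aldoc 0. Over all 250 bases before the same start, exons included, Slc2a1 holds 2 matches and Aldoc 1. Each RefSeq window runs from 250 bases before to 50 bases after a start, and only the 250 bases before it were searched. Of the 32 genes, 30 were matched, with 49 windows. In those 250 bases, ACGTG or GCGTG lay in 36 of the 49 windows (73.5%), against 38.6% of all 32851 windows. Windows of 1 gene can overlap, so the same match can count more than once. Counted by gene, 26 of the 30 had a match in at least 1 window, against 41.5% of all 27025 genes with windows. In the 250 bases searched, the letters G and C made up 58.5% in member windows against 53.2% in all windows. CACGTG, the E-box bound by Myc, which contains ACGTG on both strands, lay in 12.2% of member windows and in 6.02% of all windows. A match is a string of letters and not a site of binding, and its absence says only that the letters are not in the bases searched.

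Of the glucose transporters, GLUT1 transcript was lower and GLUT3 transcript higher in iNSCs than in MEFs, and GLUT1 remained the larger part of the pair in all 5 iNSC lines. Slc2a1 was at 18.98 FPKM in DTA, 25.3 in pBKSM, 22.1 in pOKSM, 21.2 and 14.2 in mcBKSM clones 1 and 3, against 87.7 FPKM in MEFs, and cNSCs had 21.8. Every iNSC library was below MEFs and the iNSC mean was 20.3 ± 4.13 FPKM (SD, n = 5). The difference was -2.08 on the log2(FPKM + 1) scale (SE 0.30, limma adjusted p = 0.00921), the scale of all differences here, which understates changes of low genes. Slc2a3 was at 3.68 FPKM in DTA, 2.97 in pBKSM, 7.32 in pOKSM, 8.72 and 11.2 in mcBKSM clones 1 and 3, with 25.2 in cNSCs, and was listed at 0 in MEFs. It was higher in iNSCs than in MEFs by 2.83 (SE 0.67, limma adjusted p = 0.0432), a call lost when pOKSM or either mcBKSM clone was left out (adjusted p = 0.0668 to 0.106), with quantile normalization (0.0501) and with no filter on low values (0.056). All 5 iNSC lines were below cNSCs for Slc2a3, without passing the test (-1.88, SE 0.67, limma adjusted p = 0.334). GLUT3 transcript made up 16.2% of the pair in DTA, 10.5% in pBKSM, 24.9% in pOKSM, and 29.1% and 44.2% in mcBKSM clones 1 and 3 and 53.6% in cNSCs. Shares of 5 lines against 1 library were not tested, because an exact permutation test could not give a two-sided p below 0.333.

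Hexokinase, which traps glucose as its phosphate, did not pass the test in any of the 4 limma comparisons for either isoenzyme. Hk1, the form typical of brain, was at 31.3 FPKM in DTA, 26.2 in pBKSM, 14.7 in pOKSM, 23.1 and 16.6 in mcBKSM clones 1 and 3, against 40.4 in cNSCs and 31.2 in MEFs. Hk2, the insulin-responsive form of muscle and fat, lay between 7.28 FPKM in DTA and 13.5 in pOKSM, against 12.01 in cNSCs and 13.3 in MEFs. The Hk2 share of the pair was 18.9% in DTA and 26.3% in pBKSM but 47.9% in pOKSM, so the lines spanned a wider range than the gap between cNSCs (22.9%) and MEFs (29.9%). Gpi1, the isomerase of the next step, was at 282 FPKM in pBKSM and between 175 and 185 FPKM in the other 4 lines, with 273 in cNSCs and 247 in MEFs.

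Phosphofructokinase, the committing step, differed among the iNSC lines most in Pfkp. Pfkp was at 0.997 FPKM in DTA and 0.312 in pBKSM, but at 7.63 in pOKSM, 13.8 and 13.5 in mcBKSM clones 1 and 3, with 11.5 in cNSCs and 18.9 in MEFs. The DTA and pBKSM lines stood apart from all 5 other libraries. Pfkp was lower in pBKSM than in the mcBKSM clones by a difference of -3.48 (SE 0.14, limma adjusted p = 0.0374). Pfkl, the liver-type gene, was at 22.7 FPKM in DTA, 56.9 in pBKSM, 39.1 in pOKSM, 28.8 and 32.6 in mcBKSM clones 1 and 3, against 29.97 in cNSCs and 111 in MEFs. Every iNSC library was below MEFs for Pfkl, yet the difference missed the threshold (-1.67, SE 0.46, limma adjusted p = 0.0663). Pfkm, the muscle-type gene, was at 33.2 to 62.5 FPKM in the iNSC lines, 36.4 in cNSCs and 42.4 in MEFs. As a share of the 3 genes, Pfkm took 71.9% in DTA and 41.9% to 52.6% in the other iNSC lines, against 46.8% in cNSCs and 24.6% in MEFs, where Pfkl took 64.5%.

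Aldolase held the largest difference from MEFs among the 30 genes tested. Aldoc (chr11:78322968-78327781 in GENCODE M21, GRCm38) was at 411 FPKM in DTA, 431 in pBKSM, 127 in pOKSM, 106 and 102 in mcBKSM clones 1 and 3, with 165 in cNSCs and 0.244 FPKM in MEFs. Every iNSC library was more than 100 FPKM above MEFs, and the lines fell into a high pair and a lower trio with no value between 127 and 411 FPKM. The iNSC mean of 235 ± 170 FPKM (SD, n = 5) differed from MEFs by 7.26 (SE 0.98, limma adjusted p = 0.00718). Against cNSCs the difference was 0.20 (SE 0.98, limma adjusted p = 0.939). Aldoc was higher in pBKSM than in the mcBKSM clones by 2.04 (SE 0.08, limma adjusted p = 0.0367), with a ratio of means of 4.15. Aldoa, the widespread isoenzyme, was at 435 FPKM in DTA, 859.8 in pBKSM, 623 in pOKSM, 576 and 586 in mcBKSM clones 1 and 3, against 602 in cNSCs and 936 in MEFs. Its difference from MEFs missed the threshold (-0.64, SE 0.38, limma adjusted p = 0.306), although every iNSC library was lower.

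The Aldoc share of the aldolase pair was 48.6% in DTA, 33.4% in pBKSM, 16.97% in pOKSM, 15.5% and 14.9% in mcBKSM clones 1 and 3, 21.48% in cNSCs and 0.026% in MEFs. The iNSC share averaged 25.9 ± 14.8% (SD, n = 5). Summed aldolase transcript was 847 FPKM in DTA, 1291 in pBKSM, 749.9 in pOKSM, 681 and 689 in mcBKSM clones 1 and 3, 766 in cNSCs and 936 in MEFs, so the sum varied less than the share did. Markers of astrocytes, where Aldoc is also known to be expressed, summed highest in DTA and pBKSM among the iNSC lines, as Aldoc was. The 7 markers together had 512 FPKM in DTA, 273 in pBKSM, 121 in pOKSM, 88.3 and 80.02 in mcBKSM clones 1 and 3, 759.8 in cNSCs and 59.9 in MEFs, and their part in the result was not tested. Gja1 went against the sum, at 11.04 FPKM in DTA, 35.7 in pBKSM and 49.7 to 54.7 in the other 3 iNSC lines. Slc1a3 alone gave 437 FPKM in DTA, 168 in pBKSM, 29.5 to 65.4 in the other 3 iNSC lines and 339 in cNSCs. The sum did not follow Aldoc in cNSCs, which had the highest sum of the libraries and 165 FPKM of Aldoc. Of these 7 markers, the number at 1 FPKM or more was 7 in DTA, 6 in pBKSM, 4 in pOKSM, 3 and 2 in mcBKSM clones 1 and 3, 7 in cNSCs and 2 in MEFs. In bulk RNA, more cells of a type and more RNA per cell cannot be told apart.

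**Figure D2:**
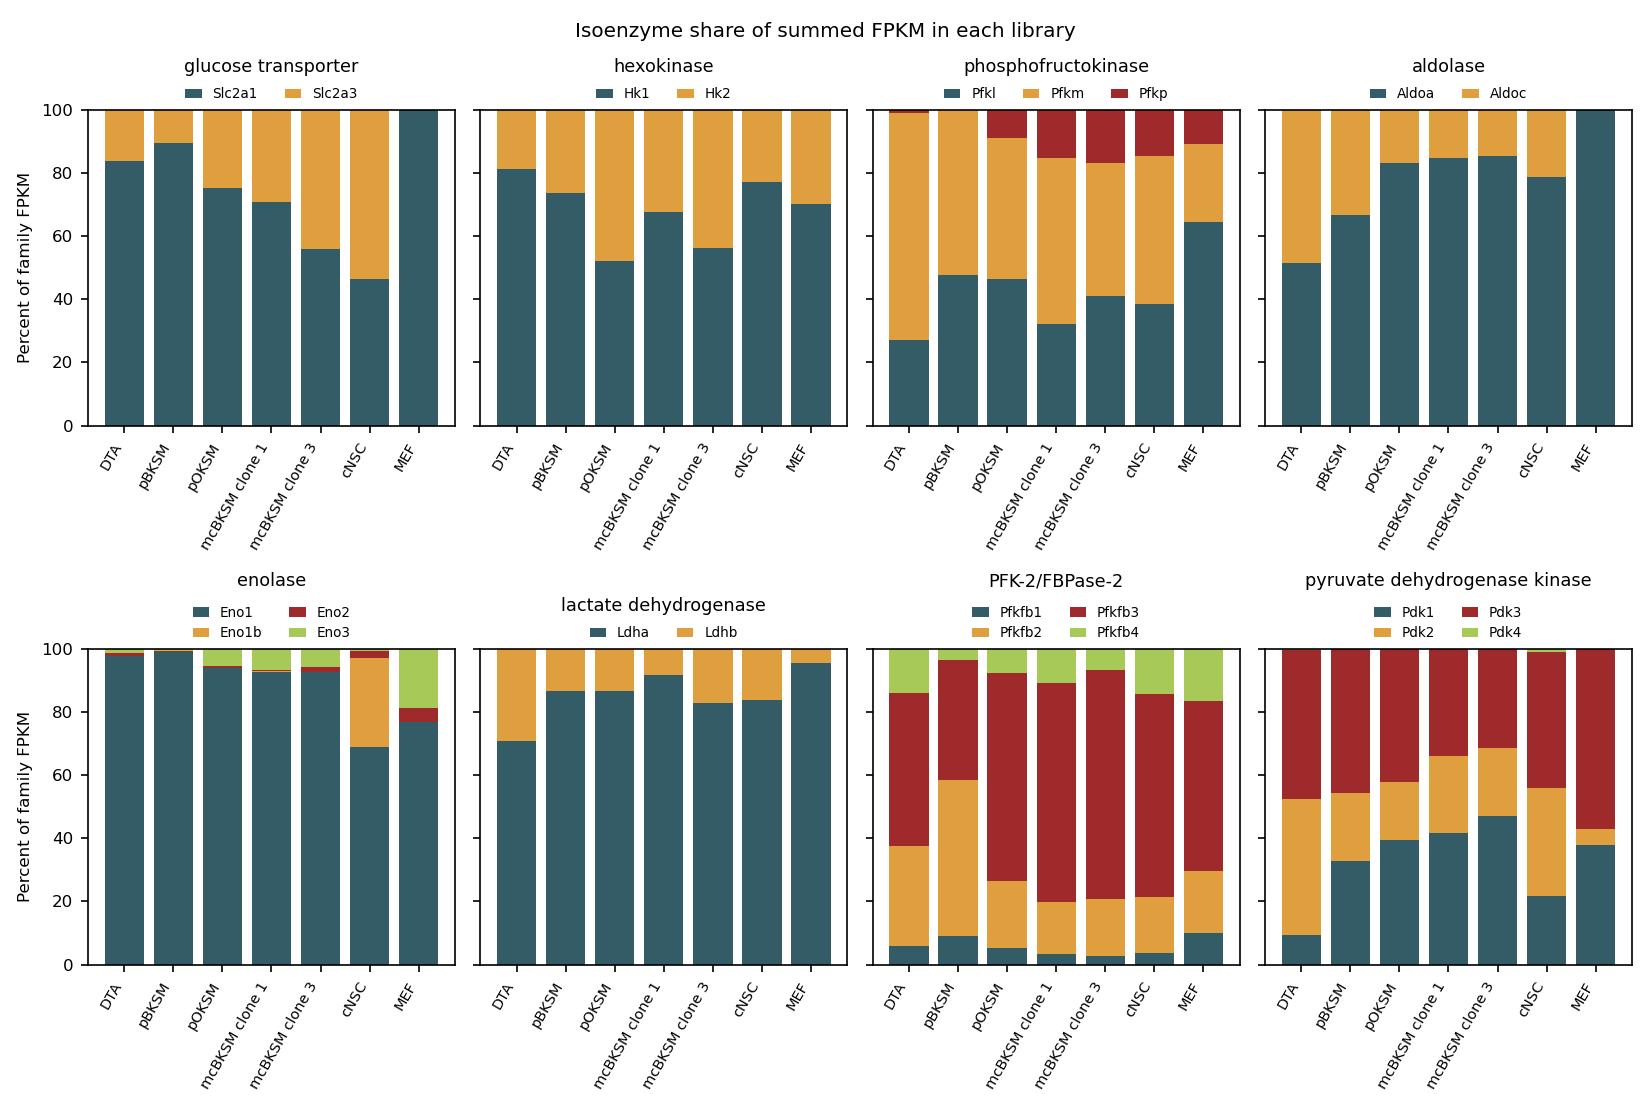
Share of each isoenzyme gene in the summed FPKM of its family (percent, stacked to the family total) for 8 families, with the 5 iNSC libraries on the left, then cNSC and MEF. The Aldoc part is 14.9% to 48.6% in the iNSC lines and 0.026% in MEFs, and the Eno1b part is visible in cNSCs alone, at 28.4%.

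The enzymes of the lower trunk act on trioses, and most of them are encoded by 1 dominant gene. Tpi1 was at 219.7 FPKM in DTA, 363 in pBKSM, 276 in pOKSM, 254 and 267 in mcBKSM clones 1 and 3, against 262 in cNSCs and 674 in MEFs. Its iNSC mean of 276 ± 53.3 FPKM (SD, n = 5) was lower than in MEFs by a difference of -1.30 (SE 0.28, limma adjusted p = 0.0338). The limma call for Tpi1 did not hold when pOKSM or either mcBKSM clone was left out (limma adjusted p = 0.0809 to 0.0945), with differences of -1.28 to -1.31. Gapdh, glyceraldehyde-3-phosphate dehydrogenase and a common reference gene, was at 754 FPKM in DTA, 1117 in pBKSM, 834 in pOKSM, 676 and 667 in mcBKSM clones 1 and 3, against 667 in cNSCs and 1324 in MEFs. The Gapdh difference from MEFs did not pass (-0.74, SE 0.36, limma adjusted p = 0.225). Pgam1, the phosphoglycerate mutase of most tissues, was at 55.7 to 127 FPKM in the iNSC lines, 80.8 in cNSCs and 202 in MEFs, with a limma adjusted p of 0.0925 against MEFs. Pgam2, its muscle partner, was listed at 0 in all 7 libraries, and skeletal muscle markers summed to at most 4.61 FPKM in any library.

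Pgk1 (chrX:106187100-106203699 in GENCODE M21, GRCm38), which makes the first ATP of the pathway's pay-off phase, also separated pBKSM from the mcBKSM clones. It was at 170.2 FPKM in DTA, 332 in pBKSM, 126 in pOKSM, 93.4 and 89.4 in mcBKSM clones 1 and 3, with 196 in cNSCs and 379 in MEFs. The pBKSM value was above all other iNSC lines and the mcBKSM clones were below every other library. Pgk1 was higher in pBKSM than in the mcBKSM clones by 1.85 (SE 0.08, limma adjusted p = 0.039), with a ratio of means of 3.64, and without the filter on low values the adjusted p was 0.0502.

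Enolase in the iNSC lines was mostly the widespread alpha form, Eno1, at 92.6% to 98.9% of the family, against 68.7% in cNSCs and 76.9% in MEFs. Eno2 was at 2.58 FPKM in DTA, 0.768 in pBKSM, 1.71 in pOKSM, 1.98 and 2.85 in mcBKSM clones 1 and 3, against 7.21 in cNSCs and 23.3 in MEFs. Gamma enolase, known as a neuronal form, was thus lower in iNSCs than in fibroblasts, by a difference of -3.08 (SE 0.45, limma adjusted p = 0.00942). The 7 neuron markers summed to 124 to 276 FPKM in the iNSC lines, 132 in cNSCs and 13.8 in MEFs, of which Map2 alone gave 112 to 259 FPKM in the iNSC lines, 117 in cNSCs and 6.42 in MEFs. At 1 FPKM or more there were 2 of the 7 in DTA, 4 in pBKSM, 6 in each of the other 3 iNSC lines, 4 in cNSCs and 2 in MEFs, and their part in the result was not tested. Eno3, the muscle form, was at 3.3 FPKM in DTA, 3.82 in pBKSM, 12.9 in pOKSM, 21.52 and 11.6 in mcBKSM clones 1 and 3, with 2.15 in cNSCs and 103 in MEFs. All iNSC libraries were below MEFs and above cNSCs for Eno3, but neither difference passed (limma adjusted p = 0.0696 against MEFs and 0.509 against cNSCs). The 7 skeletal muscle markers were near 0 in MEFs, with a sum of 0.57 FPKM and 0 of 7 at 1 FPKM.

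Between iNSCs and cNSCs, where 1.17% of all genes were called and 0.958% were called lower, limma called 0 of the 30 genes apart from Eno1b. Slc2a3 and Eno2 had an unadjusted p under 0.05, beside 13.6% of all genes. Eno1b passed the filter on low values only through cNSCs, where it is high, so it had to differ and its call is not read as a result. It was at 0.147 FPKM in DTA, 0.162 in pBKSM, 0.45 in pOKSM, and 0.0422 and 0 in mcBKSM clones 1 and 3 and 0 in MEFs, and at 91.5 FPKM in cNSCs. Eno1b is annotated as a retrogene copy of Eno1, so reads of the pair may be split between them by the mapping, and values of both are uncertain. Eno1 alone made up 68.7% of enolase transcript in cNSCs, but Eno1 and Eno1b together made up 97.1%, against 92.6% to 98.9% in the iNSC lines and 76.9% in MEFs.

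**Figure D3:**
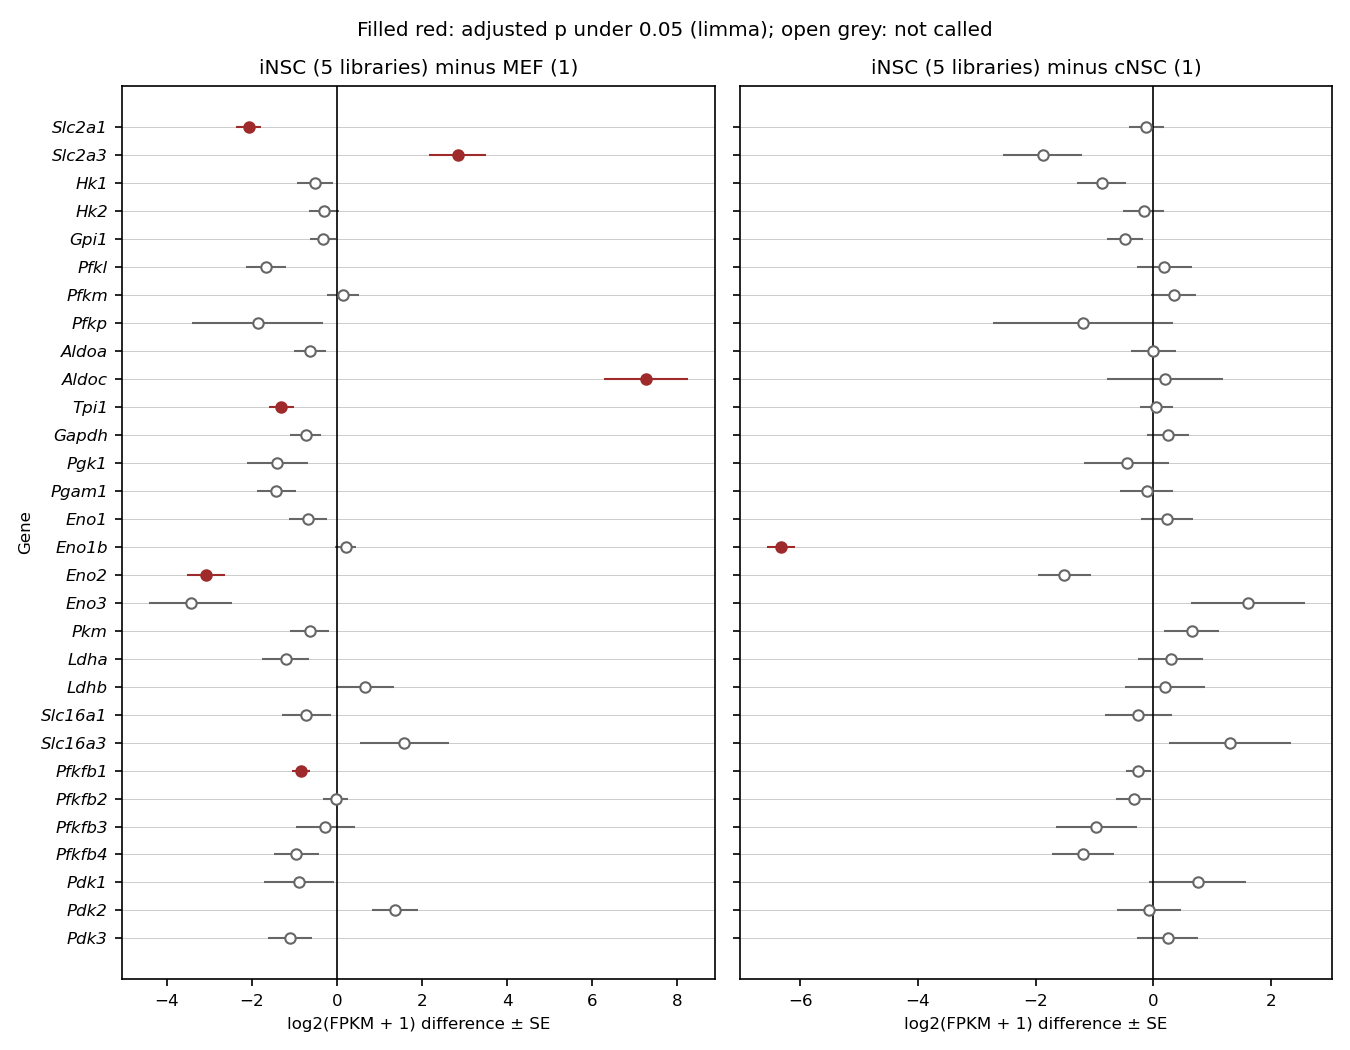
Difference on the log2(FPKM + 1) scale, with its SE, of the 5 iNSC libraries minus MEF (left) and minus cNSC (right) for the 30 genes tested, with called genes filled in red. On the left 6 genes pass, Aldoc and Slc2a3 above 0 and Slc2a1, Tpi1, Eno2 and Pfkfb1 below it, and on the right Eno1b alone is filled, having entered the fit through cNSCs only.

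Pyruvate kinase and lactate dehydrogenase close the pathway. Pkm was at 558 FPKM in DTA, 1184 in pBKSM, 954 in pOKSM, 627 and 799.7 in mcBKSM clones 1 and 3, against 504 in cNSCs and 1240 FPKM in MEFs. The gene makes the M1 and M2 forms by alternative splicing, which values per gene cannot separate. Ldha, the muscle-type subunit, was at 401 FPKM in DTA, 1122 in pBKSM, 655 in pOKSM, 531 and 525 in mcBKSM clones 1 and 3, against 492 in cNSCs and 1396 in MEFs. Every iNSC library was below MEFs for both genes, without passing the test (limma adjusted p = 0.389 for Pkm and 0.201 for Ldha). Ldhb, the heart-type subunit, was at 166 FPKM in DTA, 175 in pBKSM, 101 in pOKSM, 49.4 and 108 in mcBKSM clones 1 and 3, with 95.6 in cNSCs and 68.5 in MEFs. Its share of the pair was 29.2% in DTA, 13.5% in pBKSM, 13.4% in pOKSM, 8.52% and 17.1% in mcBKSM clones 1 and 3, 16.3% in cNSCs and 4.68% in MEFs, so MEFs had the lowest share of the 7 libraries.

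Lactate leaves the cell through MCT4, encoded by Slc16a3, and moves both ways through MCT1, encoded by Slc16a1. Slc16a3 was at 0.0263 FPKM in DTA, 1.27 in pBKSM, 4.14 in pOKSM, 4.49 and 5.23 in mcBKSM clones 1 and 3, with 0.343 in cNSCs and 0.11 in MEFs. Values in DTA and MEFs lay near or below the floor of 3 fragments. Slc16a1 was at 13.3 FPKM in DTA, 18.5 in pBKSM, 32.2 in pOKSM, 30.98 and 37.9 in mcBKSM clones 1 and 3, against 29.8 in cNSCs and 41.6 in MEFs. Neither gene passed a test in any comparison of the fits as described, although both were lowest in DTA among the iNSC lines.

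Of the kinases that control flux, only Pfkfb1 passed a test against MEFs, at a low level. It was at 1.08 FPKM in DTA, 0.934 in pBKSM, 1.01 in pOKSM, 0.727 and 0.565 in mcBKSM clones 1 and 3, against 1.21 in cNSCs and 2.34 in MEFs, a difference from MEFs of -0.85 (SE 0.21, limma adjusted p = 0.0484). That call was lost when pOKSM, pBKSM or either mcBKSM clone was left out (limma adjusted p = 0.0706 to 0.107) and with a pseudocount of 0.1 (0.0962). Pfkfb3, the form with the strongest kinase over phosphatase activity, was the most abundant of its family in 6 of 7 libraries, at 37.9% to 72.3% of PFKFB transcript in the iNSC lines, 63.96% in cNSCs and 53.7% in MEFs, and the exception was pBKSM, where Pfkfb2 took 49.3%. Pdk1 was at 2.88 FPKM in DTA, 17.1 in pBKSM, 10.1 in pOKSM, 11.2 and 14.6 in mcBKSM clones 1 and 3, with 5.40 in cNSCs and 19.1 in MEFs. Pdk2 was at 13.5 FPKM in DTA, 11.2 in pBKSM, 4.71 in pOKSM, 6.54 and 6.70 in mcBKSM clones 1 and 3, with 8.43 in cNSCs and 2.48 in MEFs. Pdk1 made up 9.24% of PDK transcript in DTA and 32.7% to 47.1% in the other 4 iNSC lines, with 21.8% in cNSCs and 37.95% in MEFs. Pdk2 made up 43.2% in DTA and 18.5% to 24.3% in the other 4, with 34.03% in cNSCs and 4.94% in MEFs. For both shares the cNSC value lay between DTA and the other iNSC lines. Pdk3 was at 14.7 FPKM in DTA, 24.01 in pBKSM and 9.20 to 10.7 in the other 3 iNSC lines, with 10.6 in cNSCs and 28.7 in MEFs, and Pdk4, the starvation-induced form, stayed at or below 0.297 FPKM in every library.

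Read as a group, the 30 genes lay lower in iNSCs than in MEFs. Their median difference was -0.70, against 0.03 over all genes tested, and 23 were negative and 7 positive. Every iNSC library was below MEFs for 18 of the 30 genes (60%), against 31.7% of all genes, and above MEFs for 3 (10%), against 31.8%. For Eno1 that separation was small, at 416 FPKM in pBKSM against 419 in MEFs. MEFs had the highest level of all 7 libraries for 17 of the 30 genes, where 28.7% of all genes were highest in MEFs. The members took 0.854% of all FPKM in DTA, 1.12% in pBKSM, 0.807% in pOKSM, 0.668% and 0.697% in mcBKSM clones 1 and 3, 0.868% in cNSCs and 1.38% in MEFs.

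Against cNSCs the iNSC lines had a median difference of -0.09, beside 0.00 over all genes. Every iNSC library was below cNSCs for 8 of the 30 genes (26.7%, against 23.6% of all genes) and above for 3 (10%, against 22.2%). The 8 were Slc2a3, Hk1, Eno1b, Eno2, Pfkfb1, Pfkfb2, Pfkfb3 and Pfkfb4, and the 3 were Gapdh, Eno3 and Pkm. Eno1b entered through cNSCs only, and Gapdh was above cNSCs by 666.8 FPKM in mcBKSM clone 3 against 666.6 FPKM in cNSCs. Between cNSCs and MEFs, with 1 library each and no replicate check, 14 of 29 genes differed by 2-fold or more on the log2(FPKM + 1) scale (48.3%, against 31.8% of all 12219 genes), 4 higher in cNSCs (Slc2a3, Aldoc, Eno1b and Pdk2) and 10 lower. The largest of those differences were 7.06 for Aldoc, 6.53 for Eno1b and -5.04 for Eno3. Slc2a3, Aldoc and Eno1b passed the filter of this comparison only through cNSCs, at 0, 0.244 and 0 FPKM in MEFs. Their differences here are not read as a result, which leaves Pdk2 among the higher genes.

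**Figure D4:**
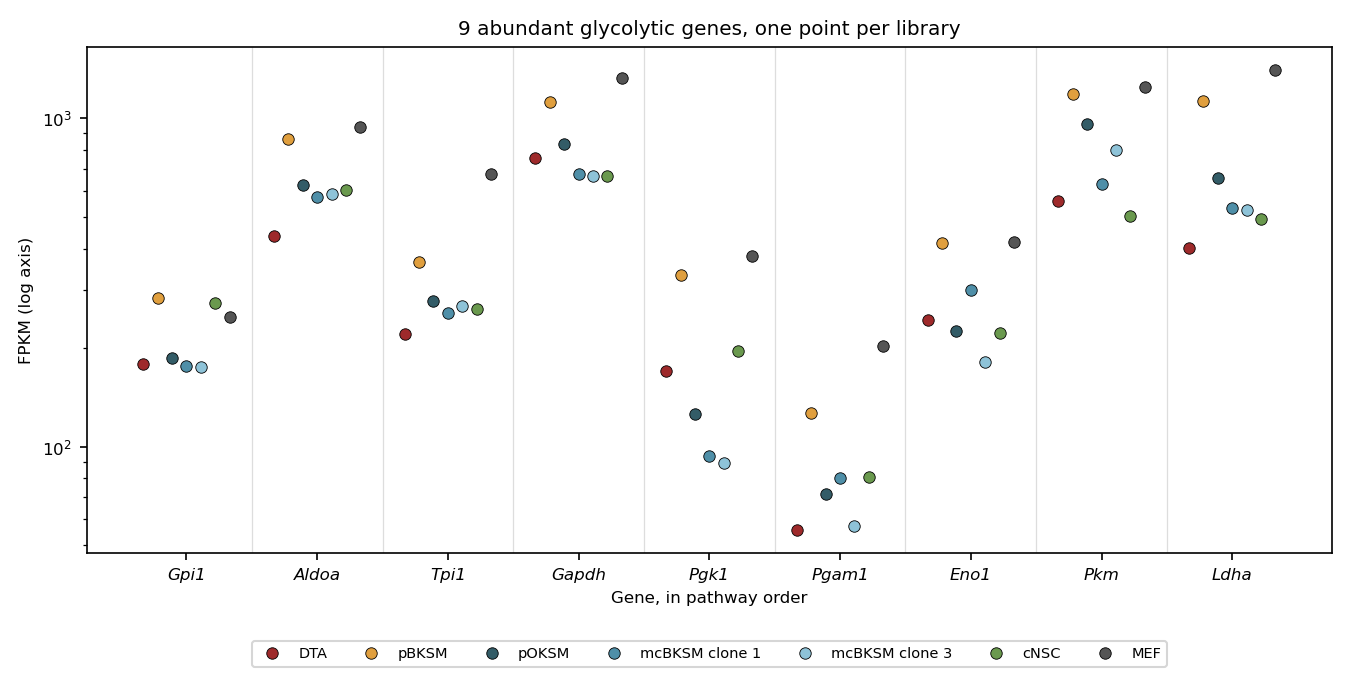
FPKM on a log axis of 9 abundant glycolytic genes in each library, with the 5 iNSC libraries first, then cNSC and MEF. Among the iNSC libraries pBKSM is highest for all 9 genes, for example 1122 FPKM of Ldha against 401 to 655 in the other 4.

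The pBKSM line had the highest level of the 5 iNSC lines for 16 of 30 genes, where 24.4% of all genes were highest in pBKSM. These were Slc2a1, Gpi1, Pfkl, Pfkm, Aldoa, Aldoc, Tpi1, Gapdh, Pgk1, Pgam1, Eno1, Pkm, Ldha, Ldhb, Pdk1 and Pdk3, which include each step between glucose phosphate and lactate. It had the lowest level for 5, Slc2a3, Pfkp, Eno2, Pfkfb3 and Pfkfb4, where 23.3% of all genes were lowest in pBKSM. Summed over the members, pBKSM had 6680 FPKM, against 3804 in DTA, 4414 in pOKSM, 3730 and 3801 in mcBKSM clones 1 and 3, with 3923 in cNSCs and 7432 in MEFs. The sum over all genes was also highest in pBKSM, and after quantile normalization, which gives every library the same distribution, pBKSM was highest for 14 of 30 genes, against 22.6% of all genes.

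Set against the 2 mcBKSM clones, whose name shares the letters BKSM, pBKSM had 3 of 30 genes called (10%, against 5.82% of all genes): Aldoc and Pgk1 higher, beside 3.74% of all genes, and Pfkp lower, beside 2.08%. It was above both clones for 21 genes (70%, against 42.9% of all genes) and below both for 9 (30%, against 42.9%). The median difference was 0.50, beside 0.00 over all genes. This fit had 1 residual degree of freedom, from the 2 clones. Ldha, at 1122 FPKM in pBKSM against 531 and 525 in the clones, had a difference of 1.09 (SE 0.11, limma adjusted p = 0.0643). When the 3 libraries alone were fitted, 11 genes were called, 7 higher and 4 lower (39.3% of the 28 genes tested there, against 21.1% of all genes in that test).

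**Figure D5:**
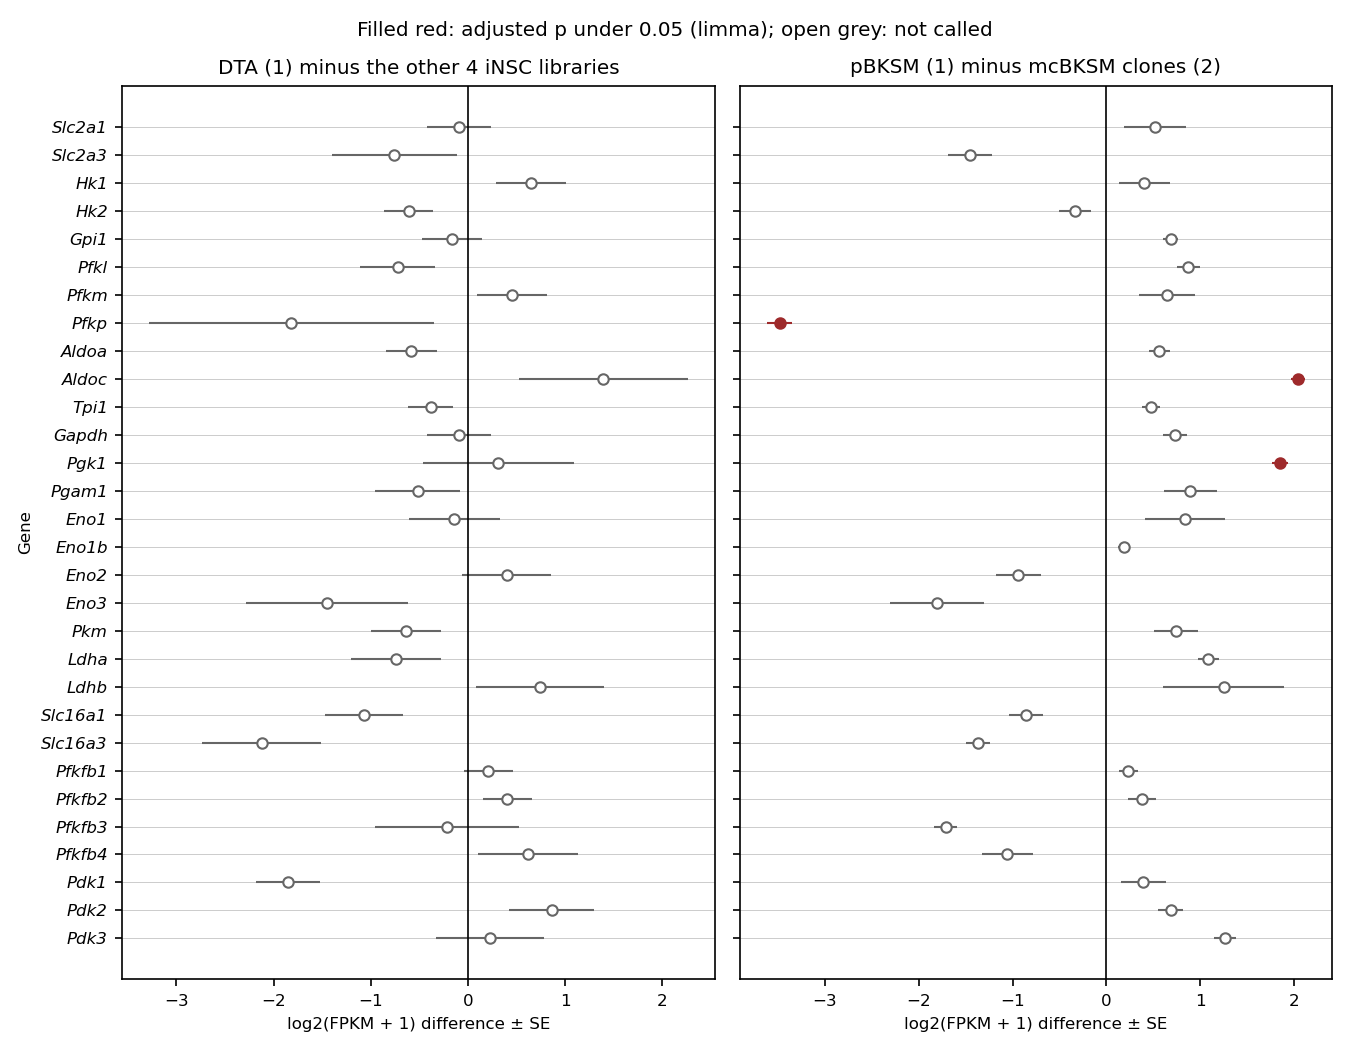
Difference on the log2(FPKM + 1) scale, with its SE, of DTA minus the other 4 iNSC libraries (left, 29 genes) and of pBKSM minus the 2 mcBKSM clones (right, 30 genes), with called genes filled in red. No gene passes on the left, and Aldoc, Pgk1 and Pfkp pass on the right.

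The DTA line was lowest of the 5 iNSC libraries for 11 of the 30 genes, where 28.6% of all genes were lowest in DTA, and highest for 5, where 29.4% were. Against the other 4 lines limma called 0 of 29 genes (0.355% of all 12378 genes were called), and 3 had an unadjusted p under 0.05, beside 20.5% of all genes: Slc16a1, Slc16a3 and Pdk1. The Pdk1 difference was -1.85 (SE 0.33, limma adjusted p = 0.0883) and that of Slc16a3 was -2.12 (SE 0.61, limma adjusted p = 0.168). With pBKSM left out, 11 of the 29 genes passed (37.9%), near the 32.3% of all genes that passed in that fit. Of the 11, 2 were higher in DTA (Aldoc and Pdk2) and 9 lower (Slc2a3, Hk2, Pfkp, Aldoa, Eno3, Slc16a1, Slc16a3, Pfkfb3 and Pdk1). These fits share libraries, so DTA and pBKSM results are not independent of each other. Pfkp and Slc16a3, at 0.997 and 0.0263 FPKM in DTA, passed the filter on low values only through the other iNSC lines. Their lower values in DTA are therefore not read as a result.

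In neighbouring pathways, calls between iNSCs and MEFs went in both directions. Of 17 HIF targets outside glycolysis, 2 rose and 4 were called lower (35.3% called, against 16.3% of all genes). Of those 4, Car9 passed the filter only through MEFs, at 0 to 0.124 FPKM in the iNSC lines, 0.0341 in cNSCs and 5.23 in MEFs, so its call is not read as a result. Egln3, a prolyl hydroxylase that marks HIF for breakdown, rose by 3.75 (SE 0.27, limma adjusted p = 0.00064), at 11.4 to 17.02 FPKM in the iNSC lines, 14.05 in cNSCs and 0.0732 in MEFs. Ndrg1, a gene induced by hypoxia, fell by 3.77 (SE 0.34, limma adjusted p = 0.00153), at 1.06 to 2.34 FPKM in the iNSC lines, 3.57 in cNSCs and 34.6 in MEFs. Ddit4, a stress-induced inhibitor of mTOR signalling, rose by 2.92 (SE 0.72, limma adjusted p = 0.0487), at 45.98 to 176 FPKM in the iNSC lines, 68.2 in cNSCs and 13.2 in MEFs. The Ddit4 call was lost without pOKSM, DTA or either mcBKSM clone (limma adjusted p = 0.0713 to 0.109), with no filter (0.0639) and with quantile normalization (0.053). The others called lower were Ankrd37 and P4ha1, and the Ankrd37 call was lost without pOKSM or either mcBKSM clone (limma adjusted p = 0.0689 to 0.0904) and with quantile normalization (0.0515). In the pentose phosphate pathway 1 of 8 rose, transketolase Tkt by 0.98 (SE 0.23, limma adjusted p = 0.042), and 1 fell, H6pd by 1.86 (SE 0.28, limma adjusted p = 0.01). The Tkt call was lost without pOKSM, pBKSM or either mcBKSM clone (limma adjusted p = 0.0626 to 0.111).

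Of 9 genes of mitochondrial pyruvate entry 0 rose and 1 fell (Pdp1, a phosphatase that activates pyruvate dehydrogenase), and of 11 glycogen genes 1 rose (Gyg, glycogenin, the primer of glycogen) and 0 fell. The Pdp1 call was lost without pOKSM, DTA or either mcBKSM clone (limma adjusted p = 0.0507 to 0.1003), with a pseudocount of 0.1 (0.0528) and with quantile normalization (0.0576). The Gyg call was lost without pOKSM or either mcBKSM clone (limma adjusted p = 0.0697 to 0.0769). Of 5 other isoenzyme and transporter genes, 1 rose (Bpgm, bisphosphoglycerate mutase), and of 13 regulators, 1 rose (Esrra, a nuclear receptor of energy metabolism). The 3 gluconeogenesis genes and the 10 genes of the serine, hexosamine and glycerol phosphate branches that were tested had 0 calls. Called shares were 25% of pentose phosphate, 20% of other isoenzyme and transporter, 11.1% of pyruvate entry, 9.09% of glycogen and 7.69% of regulator genes. Of all genes, 16.3% were called. Against cNSCs, limma called 0 genes in all 8 of these lists, with 10 of 76 at an unadjusted p under 0.05 (13.2%, against 13.6% of all genes).

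Between pBKSM and the mcBKSM clones, 6 of the 8 lists held at least 1 called gene. Called shares were 36.4% of glycogen, 33.3% of gluconeogenesis, 17.6% of HIF target and 11.1% of pyruvate entry genes. They were 10% of the serine, hexosamine and glycerol phosphate branch genes and 7.69% of regulators, against 5.82% of all genes. Of 11 glycogen genes 2 rose, Ugp2 (which makes UDP-glucose) and Pgm2, and 2 fell, Pgm1 (phosphoglucomutase) and Pygl (liver glycogen phosphorylase). Ugp2 had 92.7 FPKM in pBKSM, against 17.9 and 18.1 FPKM in the mcBKSM clones, a difference of 2.31 (SE 0.08, limma adjusted p = 0.0367). Gpd1, which turns a glycolytic triose into glycerol phosphate, had 20.1 FPKM in pBKSM, against 0.769 and 1.02 FPKM in the mcBKSM clones, and rose by 3.48 (SE 0.17, limma adjusted p = 0.041). The Gpd1 call was lost with a pseudocount of 0.1 (limma adjusted p = 0.0522) and with no filter (0.0622). Myc, the regulator, fell by 2.55 (SE 0.10, limma adjusted p = 0.0373), at 78.9 FPKM in pBKSM against 449.6 and 485 in the clones, with 50.1 in DTA, 339 in pOKSM, 42.5 in cNSCs and 47.8 in MEFs. Myc is a common reprogramming factor, and transcript of a vector and of the resident gene cannot be told apart here.

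Of the HIF targets outside glycolysis, 1 of 17 rose in pBKSM (Adm, adrenomedullin) and 2 fell (Car12 and Ddit4). Fbp1 and Pdha1 were the other genes called, both higher in pBKSM, in gluconeogenesis (1 of 3) and mitochondrial pyruvate entry (1 of 9). With no filter the calls of Adm, Car12, Ddit4, Pdha1, Pgm1, Pgm2 and Pygl were lost (limma adjusted p = 0.0504 to 0.0747), with a pseudocount of 0.1 that of Fbp1 (0.056), and with quantile normalization that of Pgm1 (0.05001). Of the 8 pentose phosphate genes and the 5 other isoenzyme and transporter genes, limma called 0, with 5 of 13 at an unadjusted p under 0.05 (38.5%, against 37.4% of all genes). Between DTA and the other 4 iNSC lines limma called 0 genes in all 8 lists, with 12 of 75 at an unadjusted p under 0.05 (16%, against 20.5% of all genes).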

How the data were processed

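RNA sequencing covered 7 mouse libraries, each made from RNA pooled over 2 to 3 biological replicates, per the labels' protocols. The deposited values were FPKM per gene symbol for 24354 symbols, made by the authors on genome build mm10, and the tools named are Cuffnorm, Cufflinks 2.2.1, STAR 2.5.2b and R 3.3.2, per the submitters' processing notes. What each tool did, and with which annotation, is not given in the sources used here. These units hide changes in total RNA per cell, and sums per gene hide splice forms and may split reads between near-identical copies. A first look at the low values gave an approximate depth per library, with 78.8% to 85.7% of 223 to 276 low values per library within 0.1 of a whole multiple, too few for counts to be recovered, so no count test was run.

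FPKM was taken as log2(FPKM + 1). Each fit kept the genes that reached 1 FPKM in any of its libraries and used limma-trend (limma 3.58.1 under R 4.3.3), with Benjamini-Hochberg adjustment over all genes tested, and called at an adjusted p under 0.05. The filter left 30 of the 32 genes, without Pgam2 and Pdk4, and 29 in the fit of the iNSC lines alone, also without Eno1b. The fits were the 3 cell classes together (4 residual degrees of freedom), 6 groups with pBKSM against the mcBKSM clones (1) and DTA against the other 4 iNSC lines (3). Lone libraries were assumed to vary like the iNSC lines or clones. Between cNSC and MEF only values are given. A gene of the pathway lists is not reported here. The genes and lists were chosen with earlier results of these data known. Values are given for all 32 genes, and from each other list the text gives values for up to 3 called genes with the largest differences. The fits were tested on simulated data with known changes. Alternatives were a pseudocount of 0.1, no filter, a 5 FPKM filter, quantile normalization, leaving out each line, and 3 libraries alone.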

Additional observations from a re-analysis of the deposited data

Results flagged for a closer look

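In each of the 78 values that were examined over the 5 iNSC lines, 1 library was flagged where its gap to the nearest other line, divided by the whole range, was above 0.71. The values were those of 30 member genes, of 22 genes of the other lists that a fit above had called, and of isoenzyme shares. Chance flags about 1 in 20 groups taken without regard to their values, and 5 were flagged here. The 22 genes were picked by their differences in these data, so that rate does not apply to them. Adm, Gyg and Pdp1 are among the 22. The pBKSM line stood apart in 4 of them, above the other 4 lines each time. Gpi1, the isomerase behind hexokinase, was at 282 FPKM in pBKSM and 175 to 185 FPKM in the other lines, a gap of 0.88 of the range on the log2(FPKM + 1) scale. Adm, adrenomedullin, was at 9.12 FPKM in pBKSM and 0.338 to 0.592 FPKM in the others, a gap of 0.914 of the range. Gyg, glycogenin, was at 49.2 FPKM in pBKSM and 28.5 to 32.5 FPKM in the others, with a gap of 0.765. Pdp1, the phosphatase of pyruvate dehydrogenase, was at 4.18 FPKM in pBKSM and 1.91 to 2.30 FPKM in the others, with a gap of 0.78. The DTA line stood apart in its Pdk2 share of PDK transcript, 43.2% against 18.5% to 24.3% in the other lines, with a gap of 0.766.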

How the results depend on the processing

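No paired analysis was possible because the groups share fewer than 2 replicate numbers. Of the single-gene results under an alternative, 218 kept direction and, where tested, call, 48 kept direction but missed the threshold, and 0 reversed. The 218 include differences without 1 mcBKSM clone, which were not tested and could not move beyond the spread of the clones. They also include Car9 against MEFs, Eno1b against cNSCs and, with the 3 libraries alone, Pfkp, Adm, Car12, Fbp1 and Pygl. Each of these passed the filter through 1 side only, so the tally does not measure how firm the results are. Aldoc, Slc2a1 and Eno2 kept their calls against MEFs under every alternative run. Leaving out 1 iNSC line gave 3 to 7 of 30 genes called against MEFs (3 without pOKSM or either mcBKSM clone). Over all genes those fits called 1147 to 3193 of 12943 to 13013 genes tested. Leaving out 1 line also gave 3 to 6 of 30 genes with every iNSC library above cNSCs, against 22.7% to 30.1% of all genes. Quantile normalization gave 1, against 25.3% of all genes. Leaving out lines gave 0 to 11 genes called between DTA and the other lines, with 11 without pBKSM (37.9% of 29 tested, against 32.3% of all genes). Between pBKSM and the mcBKSM clones, 7 genes were called with the 5 FPKM filter (25% of 28 tested, against 13.5% of all genes). With the 3 libraries alone there were 11 (39.3% of 28 tested, against 21.1% of all genes). Leaving out either clone leaves no residual degrees of freedom. With the 5 FPKM filter, Slc16a3 passed the filter only through mcBKSM clone 3, at 5.23 FPKM, so its call there is not read as a result. With the 3 libraries alone, Pfkp (0.312 FPKM in pBKSM) passed the filter only through the clones, so its call there is not read as a result. At 4-fold, 4 genes separated cNSCs from MEFs, among them Slc2a3, Aldoc and Eno1b, which passed the filter only through cNSCs. The share of all genes at 4-fold was not taken, so that count is not read as a result. The causes were not tested.

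Counts over all genes moved more. They were 2128 against MEFs (1147 without pOKSM to 3193 without DTA) and 152 against cNSCs (50 without pOKSM to 883 without DTA, 74 with a pseudocount of 0.1, 618 with no filter, 74 with the 5 FPKM filter). Between pBKSM and the mcBKSM clones they were 759 (1454 with the 5 FPKM filter, 2536 with the 3 libraries alone). Between DTA and the other lines they were 44 (0 without mcBKSM clone 1 to 3951 without pBKSM, 17 with a pseudocount of 0.1, 583 with no filter, 16 with the 5 FPKM filter). The number of genes highest in pBKSM among the iNSC lines was 14 to 19 under its alternatives, which were added after the data were seen, as were the counts of libraries that do not overlap.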
